A study of Mus musculus with 12 samples.

Results

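The BMP ligands and antagonists described here were 9 of the 24341 genes named in the count table. They comprised 4 ligands (Gdf10, Bmp2, Bmp4 and Bmp6) and 5 secreted ligand-binding proteins (Bmper, Chrdl1, Grem1, Fst and Fstl1). The genes were chosen by the measured differences of Gdf10 and Fstl1 between the groups of these same libraries, and then by family, so their values are given as a description and without a test. Each gene was read from its RefSeq transcript row with the highest mean level, and all 9 passed the filter on low counts.

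RNA was sequenced from the aortas of 10-week-old male C57BL/6J mice, an inbred laboratory strain, with 1 library per animal and 4 animals per group. The PPE week 2 group was harvested 14 days after elastase (PPE) was infused into the infrarenal aorta, a standard way to induce an aortic aneurysm in mice. The PPE week 1 group was harvested 7 days after the same infusion. The saline group was harvested 7 days after saline was infused into the same segment. No saline group at 14 days was among the samples, so PPE week 2 differed from saline in both the infusion and the time after surgery. The 2 comparisons with saline share the same 4 saline libraries.

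Bone morphogenetic proteins are secreted dimers of the TGF-beta family that bind type I and type II receptor kinases and act through the receptor-regulated Smads 1, 5 and 9, which enter the nucleus with Smad4. Secreted antagonists such as gremlin and the chordin-like proteins bind the ligands outside the cell and keep them from their receptors, whereas follistatins bind activins as well as some BMPs. In the vessel wall, BMP signalling takes part in endothelial identity, smooth muscle phenotype and calcification.

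Libraries held 8343313 to 12269131 counts, of which 4835305 to 9169690 came from features other than a ribosomal RNA precursor. That precursor took 20.4 ± 1.13% of counts at PPE week 2, 30.4 ± 6.34% at PPE week 1 and 41.3 ± 6.48% in saline (SD, n = 4 each). It was lower in all libraries of either PPE group than in all saline libraries, with an exact two-sided permutation p of 0.0286 in each comparison, the smallest that 4 against 4 can give. All 8 smooth muscle markers and all 8 fibroblast markers were detected in these aortas. Of 7 endothelial markers, Pecam1 and Tek had a count of 0 in every library, whereas 5, among them Cdh5 and Vwf, had enough counts to be tested. In whole tissue, fewer cells of a type and less RNA per cell cannot be told apart.

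Levels are given in CPM, the counts of a row per 1000000 counts of the TMM-scaled library, where TMM is edgeR's correction for library composition. Differences are log2 fold changes with their standard errors from edgeR's quasi-likelihood fit over all 12756 features tested. A feature is said to pass the threshold when its Benjamini-Hochberg adjusted p was under 0.05.

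Levels per kilobase were taken over the bases that a row does not share with another row of its gene. For Bmp4, Chrdl1 and Fst, which have such rows, they would be lower if shared reads were counted. On this scale Fstl1 had the highest level of the 9 genes in every group, with 362 CPM per kb at PPE week 2, 522 at PPE week 1 and 663 in saline. Gdf10 came next, at 67.2 CPM per kb at PPE week 2, 22.0 at PPE week 1 and 46.3 in saline. At PPE week 1 the libraries of Gdf10 and Bmper overlapped, with Bmper at 21.6 CPM per kb, whereas the ranges of these genes were apart in the other groups. Bmper had 9.20 CPM per kb at PPE week 2 and 18.7 in saline, and at PPE week 2 its libraries overlapped those of Chrdl1 at 11.6. Bmper and Chrdl1 were apart at PPE week 1 and in saline. Below Chrdl1, neighbours in the order overlapped in every group, except Bmp4 and Bmp2 at PPE week 1, with 2.95 and 1.37 CPM per kb. Fst and Grem1 were lowest at PPE week 1, with 0.367 and 0.970 CPM per kb, and in saline, with 1.40 and 0.667.

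**Figure D1:**
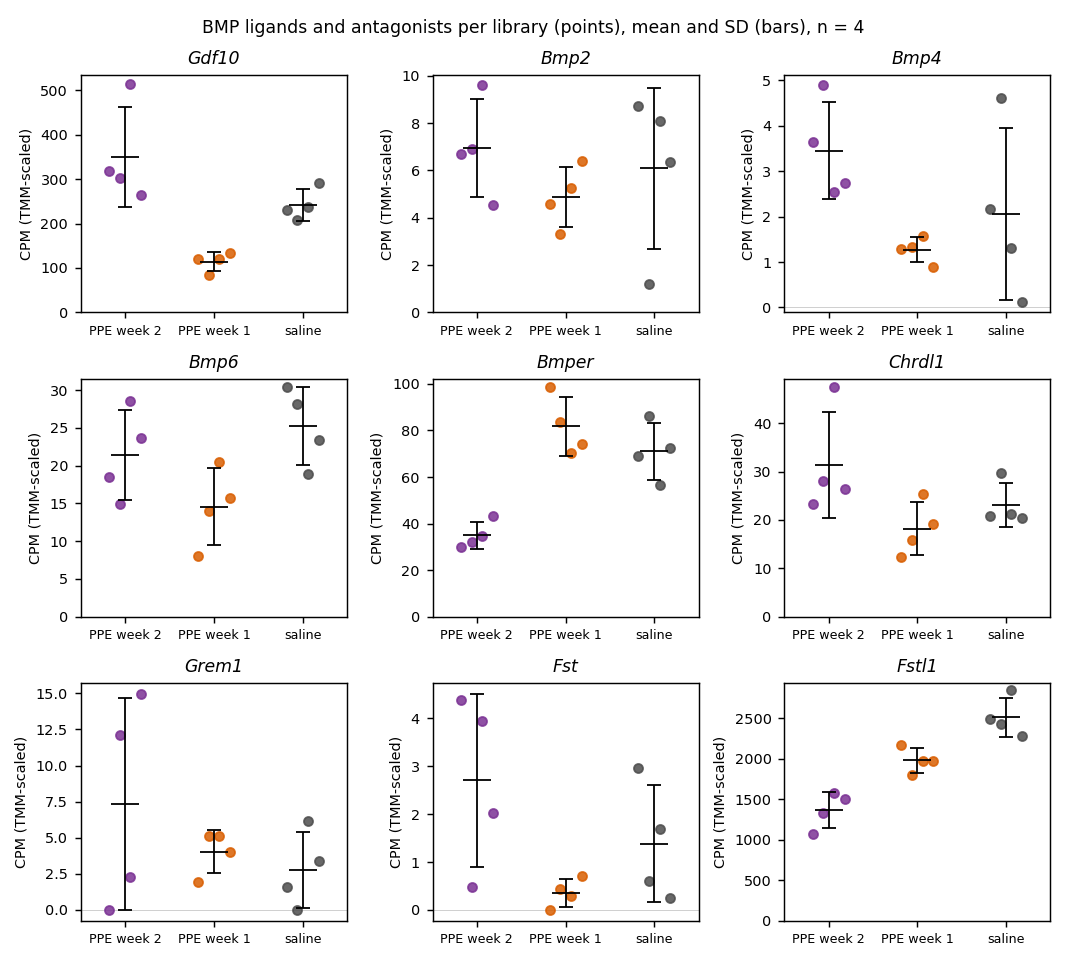
Level of each of the 9 genes in CPM (vertical axis) in the 4 libraries (points) of PPE week 2, PPE week 1 and saline, with the mean and SD as bars. Gdf10 was below saline in all PPE week 1 libraries, Bmper was below both other groups in all PPE week 2 libraries, and Fstl1 formed 3 separate groups.

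Gdf10 encodes BMP3b, an atypical ligand of the BMP family. It is a single RefSeq transcript, NM_145741, at chr14:33923587-33936514 on the plus strand of GRCm38. Its level was 318, 303, 514 and 265 CPM in PPE week 2 libraries 1 to 4, 121, 84.4, 119 and 134 CPM in PPE week 1 libraries, and 231, 207, 236 and 291 CPM in saline libraries. All PPE week 1 libraries lay below all libraries of both other groups, whereas PPE week 2 and saline overlapped. The mean was 350 ± 112 CPM at PPE week 2, 114 ± 21.1 at PPE week 1 and 241 ± 35.4 in saline (SD, n = 4 each). Against saline, the log2 fold change was 0.54 ± 0.19 at PPE week 2 and -1.08 ± 0.19 at PPE week 1, and it was 1.61 ± 0.20 at PPE week 2 against PPE week 1. The highest value, 514 CPM, was in PPE week 2 library 3, and without that library the PPE week 2 difference from saline was 0.29.

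The 250 bases before the annotated start of Gdf10 are shown because Gdf10 was lower in every PPE week 1 library than in any other library. They lie at chr14:33923337-33923586 on the plus strand (RefSeq, GRCm38.p6) and hold no annotated exon. Capitals mark motifs known to bind Smads, searched on both strands as GGCGCC, GCCGNCGC and CAGAC, none of which overlapped another in this window.
Gdf10: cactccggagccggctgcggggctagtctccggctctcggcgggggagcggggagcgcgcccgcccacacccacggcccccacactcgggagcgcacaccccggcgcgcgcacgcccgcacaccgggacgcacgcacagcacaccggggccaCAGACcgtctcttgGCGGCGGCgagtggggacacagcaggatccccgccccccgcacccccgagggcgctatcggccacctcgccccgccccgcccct
The window held CAGAC at 98 to 94 bases before the start and GCCGNCGC, on the reverse strand, at 84 to 77 bases before it. Of 32841 windows of this length before RefSeq gene starts, 42.2% held CAGAC, 6.89% held GCCGNCGC and 9.59% held GGCGCC. A match is a description of letters and not a measured binding site.

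Bmp6, a ligand best known as the BMP that sets hepcidin in iron balance, had a mean of 7.01 CPM per kb in saline, with libraries that overlapped those of Bmp4 at 4.77. The antisense gene 4930579J19Rik overlaps 7657 bases of the Bmp6 locus. Bmp6 was at 18.5, 14.9, 28.5 and 23.6 CPM in PPE week 2 libraries, 8.08, 13.9, 20.4 and 15.8 CPM in PPE week 1 libraries and 30.4, 28.2, 18.8 and 23.4 CPM in saline libraries. Every pair of groups overlapped, and 3 of 4 PPE week 1 libraries lay below the lowest saline library. Relative to saline, the log2 fold change was -0.24 ± 0.30 at PPE week 2 and -0.79 ± 0.30 at PPE week 1, and the later PPE group differed from the earlier by 0.55 ± 0.30. The PPE week 2 difference from saline was 0.24 when libraries were scaled by their size alone, beside a median of 0.54 over all features.

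Bmp2, an osteogenic ligand also made by endothelial cells, was read from 750 counts over the 12 libraries. It had 6.72, 6.91, 9.63 and 4.53 CPM in PPE week 2 libraries, 4.59, 3.32, 5.24 and 6.39 CPM in PPE week 1 libraries and 8.71, 1.19, 8.10 and 6.34 CPM in saline libraries. All groups overlapped, and saline library 2 was the lowest of the 12. The log2 fold changes were no larger than their standard errors, at 0.18 ± 0.53 and -0.32 ± 0.53 for PPE weeks 2 and 1 against saline and 0.51 ± 0.53 between the PPE weeks.

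Bmp4, a ligand that shares the receptors of Bmp2, was read from 280 counts on a row with 431 bases of its own in a transcript of 2064 bases. It had 3.64, 4.89, 2.54 and 2.73 CPM in PPE week 2 libraries, 1.29, 1.33, 1.57 and 0.898 CPM in PPE week 1 libraries and 2.18, 4.62, 1.31 and 0.129 CPM in saline libraries. All PPE week 2 libraries lay above all PPE week 1 libraries, with a log2 fold change of 1.43 ± 0.86, whereas saline overlapped both groups. The log2 fold change from saline was 0.75 ± 0.85 at PPE week 2 and -0.68 ± 0.86 at PPE week 1. An antisense gene, Gm15222, overlaps 1764 bases of the Bmp4 locus, and reads of both cannot be told apart in a library kit that does not record strand.

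Fstl1 is a secreted glycoprotein that binds BMP4 and limits its signalling in the developing mouse lung, and is a common product of mesenchymal cells. It is the single transcript NM_008047 at chr16:37777055-37836516 on the plus strand. Its level was 1073, 1328, 1575 and 1507 CPM in PPE week 2 libraries, 2171, 1803, 1968 and 1978 CPM in PPE week 1 libraries and 2494, 2434, 2849 and 2277 CPM in saline libraries. The 3 groups did not overlap, and PPE week 2 was the lowest. Fstl1 averaged 1371 ± 224 CPM at PPE week 2, 1980 ± 150 at PPE week 1 and 2513 ± 242 in saline (SD, n = 4 each). The log2 fold change from saline was -0.87 ± 0.12 at PPE week 2 and -0.34 ± 0.12 at PPE week 1, and PPE week 2 lay -0.53 ± 0.12 from PPE week 1. Scaling by library size alone gave -0.38, -0.06 and -0.32 in the same order. That scaling moved the median of all features to 0.54, 0.28 and 0.23, against 0.05, 0.00 and 0.02 with TMM, so Fstl1 was lower than that median under both scalings.

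Bmper is an extracellular BMP-binding protein, the vertebrate relative of the fly crossveinless-2, that can restrain or promote BMP4 signalling with dose. It is the transcript NM_028472 at chr9:23223076-23485215 on the plus strand. Its level was 29.8, 31.8, 34.7 and 43.2 CPM in PPE week 2 libraries, 98.8, 83.7, 70.5 and 74.1 CPM in PPE week 1 libraries and 68.9, 86.3, 56.6 and 72.5 CPM in saline libraries. All PPE week 2 libraries lay below all other libraries, and PPE week 1 overlapped saline. Bmper averaged 34.9 ± 5.90 CPM at PPE week 2, 81.8 ± 12.6 at PPE week 1 and 71.0 ± 12.2 in saline (SD, n = 4 each). Its log2 fold change from saline was -1.03 ± 0.18 at PPE week 2 and 0.20 ± 0.18 at PPE week 1, and that of PPE week 2 from PPE week 1 was -1.23 ± 0.18.

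The 250 bases before the start of Bmper are given beside those of Gdf10 because Bmper, in contrast, was lower in every PPE week 2 library than in any PPE week 1 library. They lie at chr9:23222826-23223075 on the plus strand (RefSeq, GRCm38.p6) and hold no annotated exon. None of the 3 letter strings searched in the Gdf10 window is in this one, which is therefore all in lower case.
Bmper: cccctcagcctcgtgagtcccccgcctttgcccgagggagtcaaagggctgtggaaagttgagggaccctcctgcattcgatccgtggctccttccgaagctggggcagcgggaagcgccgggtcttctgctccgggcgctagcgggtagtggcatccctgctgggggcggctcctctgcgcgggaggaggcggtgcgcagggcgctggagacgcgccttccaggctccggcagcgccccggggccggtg
G or C made up 71.6% of the Bmper window and 78.8% of the Gdf10 window.

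Chrdl1, a chordin-like antagonist of BMP4 and its relatives, had 23.3, 28.0, 47.5 and 26.3 CPM in PPE week 2 libraries, 12.4, 15.9, 25.4 and 19.1 CPM in PPE week 1 libraries and 20.8, 29.8, 21.3 and 20.3 CPM in saline libraries. The groups overlapped, and 3 of 4 PPE week 1 libraries lay below the lowest library of both other groups. The log2 fold change from saline was 0.44 ± 0.28 at PPE week 2 and -0.34 ± 0.28 at PPE week 1, and PPE week 2 exceeded PPE week 1 by 0.78 ± 0.28. The highest library was again PPE week 2 library 3, and without it the PPE week 2 difference from saline was 0.17.

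Chrdl1 was the member with counts on more than 1 transcript row, NM_031258 as above and NM_001114385, both at chrX:143285674-143394263 on the minus strand. NM_001114385 took 36.4, 22.1, 21.8 and 23.1% of the gene's counts in PPE week 2 libraries, 9.40, 6.49, 9.84 and 19.4% in PPE week 1 libraries and 21.6, 32.9, 36.1 and 15.6% in saline libraries. PPE week 1 lay below all PPE week 2 libraries, whereas saline library 4 fell inside the PPE week 1 range. The share averaged 25.9 ± 7.04% at PPE week 2, 11.3 ± 5.62% at PPE week 1 and 26.5 ± 9.58% in saline (SD, n = 4 each). With both rows summed, the log2 fold change of Chrdl1 was 1.02 ± 0.28 at PPE week 2 against PPE week 1 and -0.64 ± 0.28 at PPE week 1 against saline.

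**Figure D2:**
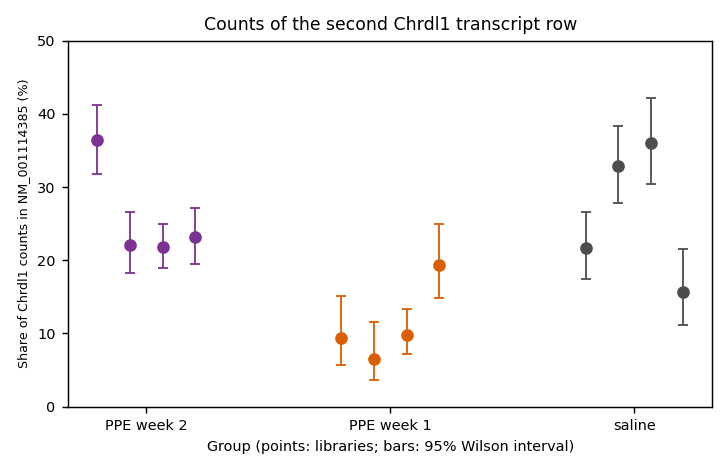
Share of Chrdl1 counts on the transcript row NM_001114385 (percent, vertical axis) in each library (points) of PPE week 2, PPE week 1 and saline, with 95% Wilson intervals that cover counting error only. The PPE week 1 libraries spanned 6.49 to 19.4%, below the 21.8 to 36.4% of PPE week 2, and saline spanned 15.6 to 36.1%.

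Grem1 encodes gremlin, an antagonist of BMP2 and BMP4. It had 0, 12.1, 2.28 and 15.0 CPM in PPE week 2 libraries, 1.93, 5.09, 5.09 and 3.99 CPM in PPE week 1 libraries and 1.57, 0, 6.14 and 3.36 CPM in saline libraries. A count of 0 allows up to 0.280 CPM in PPE week 2 library 1 and 0.447 CPM in saline library 2, counting 3 counts as the limit. Of the counts from 2 to 20, 66.0% (lowest library) to 75.6% (highest library) were even numbers. If each fragment was counted as 2, which the sources used here do not say, such limits double and the intervals on the Chrdl1 shares are too narrow. The PPE week 2 libraries held both the highest and a lowest value of the 12, and the groups overlapped. The log2 fold changes from saline of 1.40 ± 1.18 at PPE week 2 and 0.54 ± 1.17 at PPE week 1 carried errors of the same order. The difference of PPE week 2 from PPE week 1, 0.87 ± 1.15, changed sign in limma-voom, to -0.69.

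Fst encodes follistatin, which binds activins tightly and some BMPs. It was read from 193 counts on a row with 982 bases of its own out of 2833, and its other rows had a count of 0. The antisense gene Gm47040 overlaps 289 bases of the Fst locus. Fst had 4.38, 0.480, 3.94 and 2.02 CPM in PPE week 2 libraries, 0, 0.442, 0.299 and 0.698 CPM in PPE week 1 libraries and 2.96, 0.596, 1.70 and 0.259 CPM in saline libraries. The PPE week 1 libraries were among the lowest, but groups overlapped because PPE week 2 library 2 and 2 saline libraries were as low. The log2 fold change from saline was 0.95 ± 1.11 at PPE week 2 and -1.93 ± 1.17 at PPE week 1, and that between the PPE weeks was 2.88 ± 1.20.

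**Figure D3:**
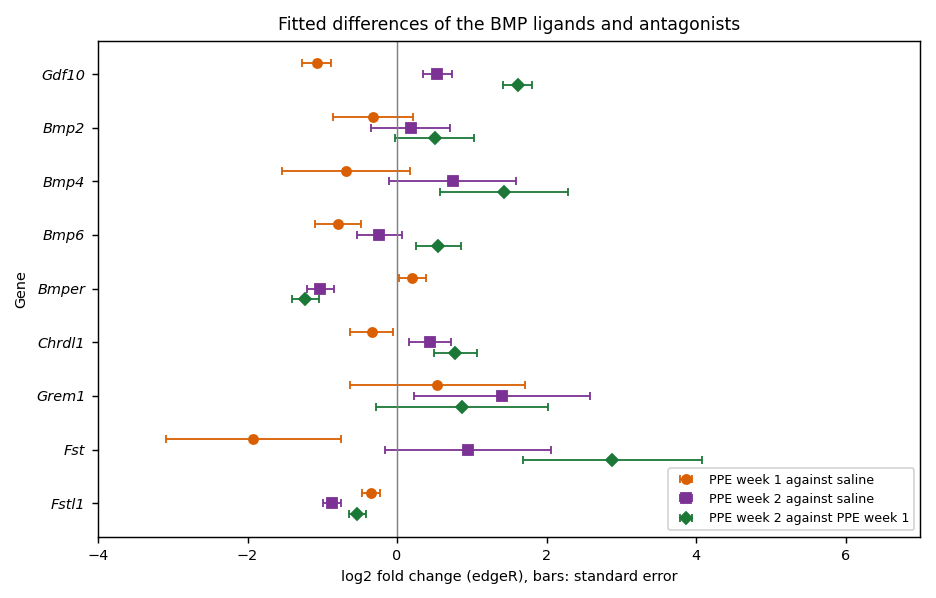
Fitted log2 fold change of each of the 9 genes (horizontal axis, bars: standard error) of each PPE week over saline and of the later PPE week over the earlier. Against saline, Gdf10 lay at 0.54 for PPE week 2 and -1.08 for PPE week 1, Bmper at -1.03 and 0.20 and Fstl1 at -0.87 and -0.34, while Grem1 and Fst had standard errors of 1.11 to 1.20.

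At PPE week 1 against saline, 7.89% of all features passed the threshold (3.98% higher, 3.91% lower), and so did 1 of the 9 members, Gdf10, which was lower. At PPE week 2 against saline, 2.65% of all features passed (1.30% higher, 1.35% lower), and so did 2 members, Bmper and Fstl1, both lower. Between the PPE weeks, 6.59% of all features passed (3.77% higher at PPE week 2, 2.82% lower), and so did 3 members, with Gdf10 higher at PPE week 2 and Bmper and Fstl1 lower. Because the members were picked for differences in these comparisons, nothing is read from these counts. The median log2 fold change of the 9 members was -0.34, 0.44 and 0.78 in the 3 comparisons, beside 0.00, 0.05 and 0.02 over all features. Libraries of the compared groups did not overlap for 2, 2 and 4 members in the same order, against 21.1, 8.99 and 15.9% of all features.

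Single libraries and scalings moved some of these counts. Without PPE week 2 library 1, or in a fit of the 8 libraries compared, Fstl1 also passed between PPE week 1 and saline, for a count of 2. Without PPE week 1 library 1, Fstl1 did not pass between the PPE weeks, for a count of 2. Scaling by library size alone also gave 2 members at PPE week 2 against saline. These were Gdf10 and Chrdl1, both higher, with log2 fold changes of 1.00 and 0.94, in place of Bmper and Fstl1. Under that scaling 1611 of all 12756 features passed as higher and 27 as lower, and the median of all features was 0.54. With the share of the ribosomal RNA precursor as a covariate, an alternative chosen after seeing the data, 0, 0 and 1 members passed in the 3 comparisons. Of all 12756 features, 23, 0 and 54 passed as higher and 59, 0 and 15 as lower under this covariate. In that fit the log2 fold change from saline was -0.83 ± 0.26 for Fstl1 at PPE week 2 and -1.21 ± 0.27 for Gdf10 at PPE week 1. The share did not overlap between either PPE group and saline, so it and the infusion cannot be told apart there.

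In the authors' deposited tables, which set each PPE week against saline, the log2 fold change of Gdf10 was 0.49 at PPE week 2 and -1.07 at PPE week 1. For the same weeks the authors' deposited tables gave -0.84 and -0.36 for Fstl1, -0.94 and 0.18 for Bmper, and -0.20 and -0.76 for Bmp6. For the second Chrdl1 row, NM_001114385, the authors' deposited tables gave 0.17 and -1.51, against 0.38 and -0.34 for NM_031258.

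Marker lists of some cell types are given beside these genes, and not all of them moved with the genes. The summed level of the 8 smooth muscle markers spanned 4632 to 10441 CPM at PPE week 2, 1723 to 3058 CPM at PPE week 1 and 5048 to 6753 CPM in saline. As with Gdf10, every PPE week 1 library was below every other library, and PPE week 2 library 3 was the highest of the 12. Of these 8 markers 6 were lower at PPE week 1 than in saline and 6 were higher at PPE week 2 than at PPE week 1 by the edgeR test. The 6 adipocyte markers summed to 282 to 544 CPM at PPE week 1, below all saline libraries at 623 to 1786 CPM. PPE week 2, at 181 to 2609 CPM, overlapped both groups. All 5 adipocyte markers tested lay below 0 at PPE week 1 against saline and above 0 between the PPE weeks. Of these, 0 passed the edgeR test in any comparison. The part of the smooth muscle and adipocyte markers in the Gdf10 values was not tested.

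The 8 fibroblast markers, a cell class known to make Fstl1, summed to 33608 to 51522 CPM at PPE week 2, 42947 to 55459 CPM at PPE week 1 and 34118 to 44816 CPM in saline. Most of this sum was collagen I, with Col1a1 at 24208 CPM at PPE week 2, 29994 at PPE week 1 and 22800 in saline, and neither Col1a1 nor Col1a2 passed the edgeR test in any comparison. By that test 4 of these 8 were lower at PPE week 1 than in saline, and 3 were lower at PPE week 2 than in saline. The 3 were the matrix genes Dpt, Lum and Dcn, with log2 fold changes at PPE week 2 of -0.87 ± 0.20, -0.75 ± 0.17 and -0.90 ± 0.17, beside -0.87 ± 0.12 for Fstl1. As for Fstl1 and Bmper, all PPE week 2 libraries of these 3 genes lay below all saline libraries. Of the 8 fibroblast markers, 4 lay above 0 and 4 below in that comparison, with Dpep1 at 0.61 ± 0.22 and Pi16 at 0.20 ± 0.18. Between the PPE weeks, where Fstl1 and Bmper were lower at PPE week 2, 2 of the 8 passed as higher and 0 as lower. These were Dpep1, at 1.15 ± 0.22, and Pi16, at 0.91 ± 0.18. The 6 activated fibroblast markers summed to 525 to 851 CPM at PPE week 2, 719 to 882 CPM at PPE week 1 and 649 to 968 CPM in saline, most of it from Tnc, which averaged 574 CPM at PPE week 2, 670 at PPE week 1 and 669 in saline. Of these 6, Cthrc1 and Postn were lower at PPE week 2 than in saline by the edgeR test, with log2 fold changes of -2.05 ± 0.30 and -1.81 ± 0.38 and no overlap of libraries. Cthrc1 was also lower at PPE week 2 than at PPE week 1, by -2.20 ± 0.30, the comparison in which Bmper lay at -1.23 ± 0.18. Ncam1, of the same list, was higher there, at 1.78 ± 0.43, so that 1 of the 6 passed as higher and 1 as lower. The 7 endothelial markers, of a cell type known to make Bmper, summed to 707 to 1184 CPM at PPE week 2, 674 to 784 CPM at PPE week 1 and 640 to 849 CPM in saline. The 8 macrophage markers summed to 821 to 2161 CPM at PPE week 2, 2263 to 2713 CPM at PPE week 1 and 1138 to 1488 CPM in saline, and PPE week 1 was above both other groups in all libraries. The part of these cell types in the levels of Fstl1 and Bmper was not tested.

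**Figure D4:**
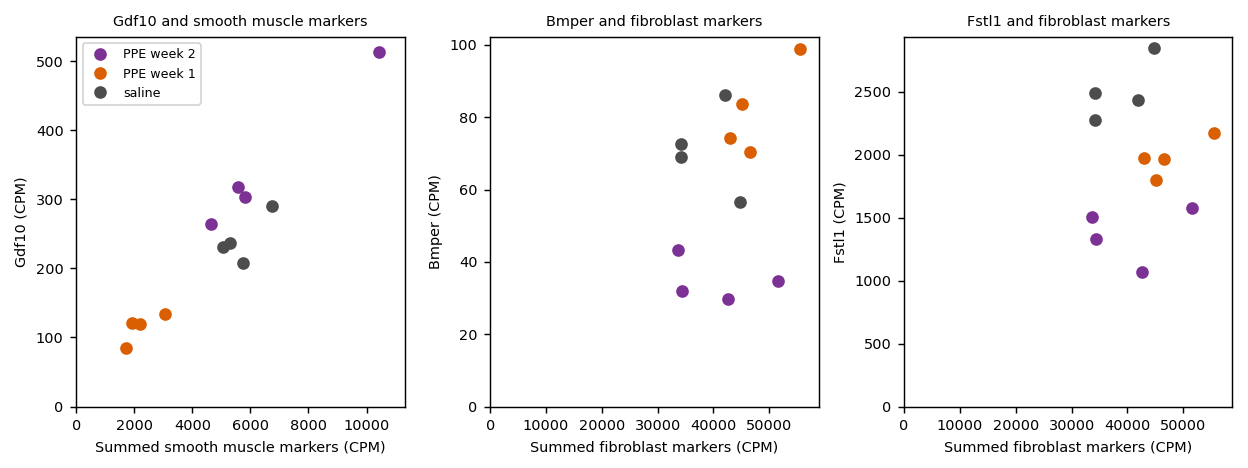
Level of Gdf10 against the summed smooth muscle markers, and of Bmper and Fstl1 against the summed fibroblast markers (CPM on both axes), with 1 point per library of PPE week 2, PPE week 1 and saline. The PPE week 1 libraries lay at the low end of both axes for Gdf10, with 1723 to 3058 CPM of smooth muscle markers, and the fibroblast sums, mostly Col1a1 and Col1a2, overlapped between PPE week 2 and saline.

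The genes whose levels over the 12 libraries were most like Gdf10 were 2900026A02Rik, Itga7, Col4a4, Kank1 and Acta2, with Pearson r of log2 CPM between 0.970 and 0.976. Acta2, smooth muscle actin, and Itga7, a laminin-binding integrin chain, are found in smooth muscle, and Acta2 was also one of the 8 smooth muscle markers. For Bmper the most alike were Anxa2, Rad23b, Adam12, Rps2 and Mir5098, with r between 0.928 and 0.943. For Fstl1 they were Piezo2, Pafah1b2, Mfap5, Mlec and Cggbp1, with r between 0.929 and 0.969, of which Mfap5 is a microfibril protein of the matrix. For the remaining members the most alike gene had r between 0.899 for Bmp4 with Ccdc107 and 0.969 for Bmp2 with Shisa4. These values were picked as the highest over all tested genes and follow the 3 groups, so they describe shared patterns and carry no test.

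Beyond the 9 members, 69 other genes of the pathway were taken from textbook families, in lists written with earlier results of these data known. Their counts beside the shares of all features are therefore a description. Of the 69 genes, 42 had enough counts to be tested. Of the 27 that were not, 16 have several RefSeq rows, and how reads shared between such rows were counted is not given in the sources used here. Among these, Eng, the endothelial co-receptor endoglin, had 1 count over the 12 libraries. Of the 42, 7 (16.7%) fell and 0 rose at PPE week 1 against saline, where 7.89% of all features passed, with a median log2 fold change of -0.23, beside 0.00 over all features. At PPE week 2, 1 (2.38%) rose and 0 fell against saline, near the 2.65% of all features, with a median of 0.29 beside 0.05. Between the PPE weeks, 6 (14.3%) rose and 0 fell at PPE week 2, where 6.59% of all features passed, with a median of 0.51 beside 0.02. Of the 7 genes, Sost, Twsg1, Smad9 and Bmpr1a also passed as higher at PPE week 2 against PPE week 1, as 6 of 8 smooth muscle markers did. Smoc2, Vwc2 and Smurf2 did not pass there, with log2 fold changes of 0.42 ± 0.16, 2.04 ± 0.93 and 0.13 ± 0.15. The part of the smooth muscle markers in these calls was not tested.

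Among the 4 other BMP and GDF ligands tested, none passed the threshold in any comparison. Gdf6, a joint and skeletal ligand, averaged 4.91 ± 3.56 CPM at PPE week 2, 3.50 ± 2.43 at PPE week 1 and 3.29 ± 1.96 in saline (SD, n = 4 each). Bmp5, a ligand close to Bmp6, averaged 3.75 ± 2.99, 2.86 ± 1.21 and 2.47 ± 2.56 CPM in the same groups. Of the activins and relatives that follistatins bind, 4 of 5 were tested and none passed. Inhba, the activin A subunit, averaged 42.5 ± 17.1 CPM at PPE week 2, 36.1 ± 6.00 at PPE week 1 and 58.5 ± 14.2 in saline. Its PPE week 1 difference from saline was -0.70 ± 0.27, with an edgeR adjusted p of 0.136. Gdf11 averaged 6.56 ± 1.76, 10.0 ± 2.46 and 13.8 ± 6.31 CPM in PPE week 2, PPE week 1 and saline.

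Of 12 secreted antagonists and modulators tested other than the members, 4 fell between PPE week 1 and saline, 0 passed between PPE week 2 and saline, and 3 rose at PPE week 2 relative to PPE week 1. Sost, which encodes sclerostin, a Wnt antagonist related to the BMP antagonists, had 152, 184, 646 and 158 CPM in PPE week 2 libraries, 12.9, 9.29, 12.9 and 35.1 CPM in PPE week 1 libraries and 93.2, 86.9, 126 and 82.7 CPM in saline libraries. The 3 groups did not overlap, with PPE week 2 highest and PPE week 1 lowest. Sost fell at PPE week 1 against saline (log2 fold change -2.47 ± 0.58, edgeR adjusted p 0.0284) and rose at PPE week 2 against PPE week 1 (4.02 ± 0.61, edgeR adjusted p 0.00490). The first call was lost without any single saline library (adjusted p 0.0526, 0.0543, 0.0703 and 0.0634 for libraries 1 to 4) and without PPE week 1 library 1, 2 or 3 (0.0919, 0.0977 and 0.0845), as it was with no low-count filter (0.0557). The second held without each of the 12 libraries, with an adjusted p of at most 0.0264.

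Twsg1, twisted gastrulation, which binds BMPs together with chordin, averaged 182 ± 59.2 CPM at PPE week 2, 100.5 ± 9.47 at PPE week 1 and 180 ± 34.3 in saline (SD, n = 4 each). It fell at PPE week 1 against saline (-0.84 ± 0.20, edgeR adjusted p 0.0190) and rose at PPE week 2 against PPE week 1 (0.86 ± 0.20, edgeR adjusted p 0.0193). The first call was lost without saline library 4 (0.074) or PPE week 1 library 1, 2 or 4 (0.0541, 0.0699 and 0.0514). The second was lost without PPE week 1 library 1, 2 or 4 (0.0581, 0.0786 and 0.0535) or PPE week 2 library 3 (0.0722). Crim1, a membrane-anchored protein with chordin-type repeats that holds BMPs at the cell surface, averaged 228 ± 67.0, 134 ± 10.7 and 155 ± 21.8 CPM in PPE week 2, PPE week 1 and saline. It rose at PPE week 2 against PPE week 1 (0.76 ± 0.18, edgeR adjusted p 0.0189), a call lost without PPE week 1 library 1 or 2 (0.0688 and 0.0654) or PPE week 2 library 3 (0.0724).

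Smoc2, a matricellular protein whose relatives antagonise BMP signals, averaged 188 ± 50.1 CPM at PPE week 2, 140 ± 13.8 at PPE week 1 and 242 ± 12.5 in saline (SD, n = 4 each). It fell at PPE week 1 against saline (-0.79 ± 0.16, edgeR adjusted p 0.00819), and the adjusted p without each single library was at most 0.0362. Vwc2, brorin, a chordin-like antagonist known from the nervous system, averaged 1.63 ± 0.843, 0.379 ± 0.306 and 4.18 ± 0.921 CPM in PPE week 2, PPE week 1 and saline. It fell at PPE week 1 against saline (-3.40 ± 0.97, edgeR adjusted p 0.0399). That call was lost without any single library of these 2 groups (adjusted p 0.0571 to 0.0988) and with the replicate number as a block (0.0603).

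Among 10 receptors and co-receptors tested, Bmpr1a passed the threshold. Bmpr1a, the type I receptor ALK3, had 135, 146, 227 and 121 CPM in PPE week 2 libraries, 106, 88.6, 115 and 107 CPM in PPE week 1 libraries and 233, 189, 216 and 236 CPM in saline libraries. All PPE week 1 libraries lay below all libraries of both other groups. Bmpr1a fell at PPE week 1 against saline (-1.07 ± 0.17, edgeR adjusted p 0.00220), and this call held under all 23 alternatives, with an adjusted p of at most 0.0312. Its rise at PPE week 2 against PPE week 1 (0.59 ± 0.17, edgeR adjusted p 0.0498) was lost without any single saline or PPE week 1 library, or without PPE week 2 library 3 (0.0621 to 0.182). It was also lost with the replicate block (0.0537), with limma-voom (0.0713) and in the fit of 8 libraries (0.104). Bmpr2, the type II receptor and the receptor with the highest CPM, averaged 306 ± 43.3, 323 ± 24.9 and 391 ± 30.2 CPM in PPE week 2, PPE week 1 and saline, with edgeR adjusted p against saline of 0.131 at PPE week 2 and 0.181 at PPE week 1.

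Of 6 Smads and Smad regulators tested, 2 fell at PPE week 1 against saline and 1 rose at PPE week 2 against PPE week 1. Smad9, a receptor-regulated Smad of the BMP branch and a known target of it, had 13.4, 21.5, 23.3 and 18.2 CPM in PPE week 2 libraries, 1.65, 3.10, 4.26 and 7.78 CPM in PPE week 1 libraries and 12.9, 18.2, 10.3 and 10.7 CPM in saline libraries. PPE week 1 lay below both other groups in all libraries. Smad9 fell at PPE week 1 against saline (-1.63 ± 0.41, edgeR adjusted p 0.0235), a call lost without saline library 2 (0.0709) or PPE week 1 library 1, 2 or 3 (0.0645, 0.0844 and 0.0579). It rose at PPE week 2 against PPE week 1 (2.18 ± 0.42, edgeR adjusted p 0.00534), and this held without each of the 12 libraries. Smurf2, a ubiquitin ligase that removes Smads and receptors, averaged 118 ± 25.4, 108 ± 2.80 and 172 ± 25.1 CPM in PPE week 2, PPE week 1 and saline. It fell at PPE week 1 against saline (-0.67 ± 0.15, edgeR adjusted p 0.0143), a call lost without saline library 4 (0.059). Smad4, the shared partner Smad, averaged 91.4 ± 14.8, 93.3 ± 10.6 and 84.5 ± 13.8 CPM in the same groups, with an edgeR adjusted p of 0.695 or more in each comparison.

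Id genes, which encode helix-loop-helix inhibitors of differentiation, are the best known direct targets of BMP signalling. Of 6 targets tested, Id3 passed. Id3 had 69.4, 82.4, 84.9 and 64.7 CPM in PPE week 2 libraries, 34.9, 38.0, 38.4 and 32.2 CPM in PPE week 1 libraries and 25.2, 48.6, 46.3 and 33.1 CPM in saline libraries. All PPE week 2 libraries lay above all other libraries, and PPE week 1 fell inside the saline range. Id3 rose at PPE week 2 against saline (0.98 ± 0.21, edgeR adjusted p 0.0184) and at PPE week 2 against PPE week 1 (1.07 ± 0.21, edgeR adjusted p 0.00564). The first call was lost without saline library 4 (0.0619) and in the fit of 8 libraries (0.0802), and the second held without each of the 12 libraries. Id2 averaged 57.1 ± 16.4, 51.3 ± 3.88 and 41.7 ± 9.08 CPM in PPE week 2, PPE week 1 and saline, with an edgeR adjusted p of 0.305 at PPE week 2 against saline.

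**Figure D5:**
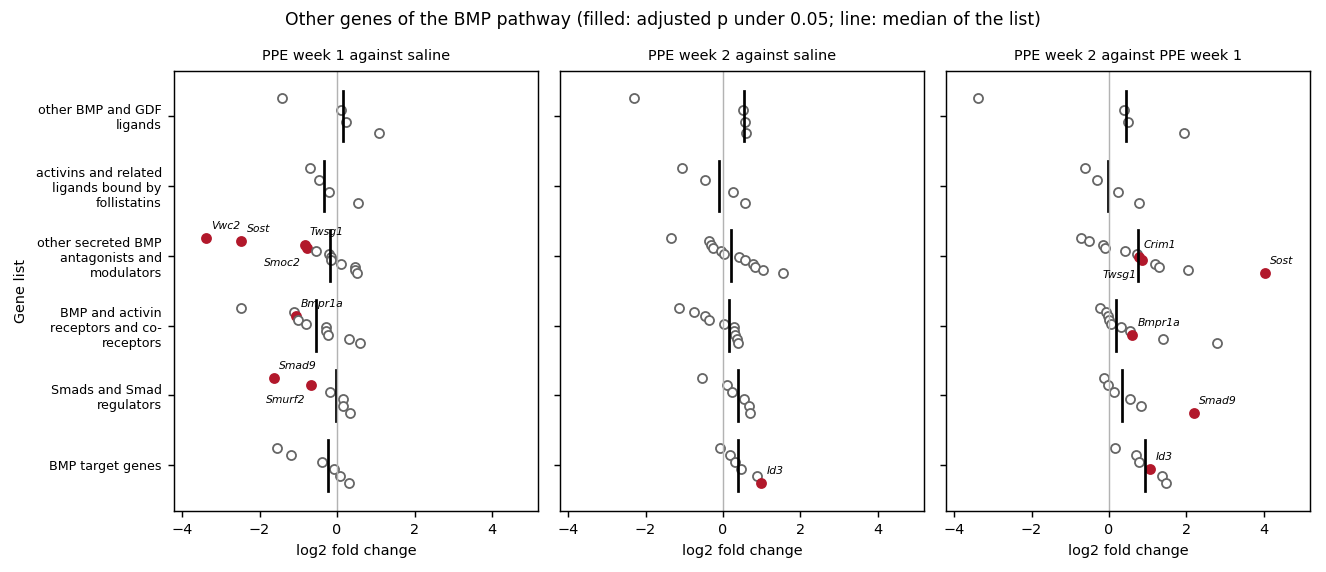
Log2 fold changes (horizontal axis) of the 42 other pathway genes tested, in 6 lists, for each PPE week over saline and for PPE week 2 over PPE week 1, with filled points for an adjusted p under 0.05 and a line at the median of each list. The calls were 7 lower in the first comparison, 1 higher in the second and 6 higher in the third.

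With the ribosomal RNA precursor share as a covariate, the pathway calls that held were Bmpr1a at PPE week 1 against saline and Id3 at PPE week 2 against PPE week 1. Under this covariate 0 of all features passed at PPE week 2 against saline in either direction. Scaling by library size alone ended the PPE week 1 calls of Twsg1, Vwc2, Smoc2, Smad9 and Smurf2, with adjusted p of 0.145, 0.0639, 0.117, 0.0524 and 0.223. That scaling moved the median of all features in this comparison to 0.28.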

How the data were processed

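The authors deposited raw counts per RefSeq accession and library (34755 accessions, 14322 at 0 throughout) and 2 tables of their own comparisons, whose columns used here are log2 fold changes; the deposited p-values were not printed. Tools in the submitters' processing notes are DESeq2 and bcl2fastq, with the build mm10 and no versions. The aligner, counter and annotation release were not given in the sources used here. Per the labels, RNA was made into libraries with a TruSeq v2 kit, which does not record strand. Accessions were named from RefSeq (34419) and GENCODE (197). How reads shared between isoforms were counted was not given either; if they were left out, genes with overlapping rows are undercounted. Counts were fitted with edgeR 4.0.16 in R 4.3.3 (filterByExpr, TMM, robust quasi-likelihood test, 1 mean per group, 12 libraries, Benjamini-Hochberg over 12756 features), after a check on simulated data. Alternatives included DESeq2 1.42.0 and limma 3.58.1. Named pathway genes are those past the threshold and the 2 of highest CPM per list; for likeness, the 5 genes of highest r. Members and lists were chosen with earlier results of these data known. The p-values measure the spread between animals. Intervals and floors cover counting error and take each count as 1 fragment, although even counts were in excess; halved counts were an alternative.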

Additional observations from a re-analysis of the deposited data

Results flagged for a closer look

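Of 75 groups of 4 libraries checked, 4 had a library far from the other 3, and chance alone flags about 1 in 20 groups. The highest saline library for Chrdl1 had 29.8 CPM, beside 21.3 in the nearest. The highest PPE week 2 library for Sost had 646 CPM beside 184, and the highest PPE week 1 library had 35.1 CPM beside 12.9. For Smurf2 the highest PPE week 2 library had 156 CPM beside 109.9. PPE week 2 library 3 gave the high values of Sost and Smurf2 and also the highest smooth muscle marker sum, 10441 CPM.

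By the edgeR test of PPE week 2 against PPE week 1, levels differed between the 2 PPE weeks in 6 pathway genes. Without a saline group at 14 days, a changed effect of PPE cannot be told apart from time after surgery. The log2 fold changes were 4.02 for Sost, 2.18 for Smad9, 1.07 for Id3, 0.86 for Twsg1, 0.76 for Crim1 and 0.59 for Bmpr1a. Around the saline mean of 241 CPM for Gdf10, all PPE week 2 libraries lay above and all PPE week 1 libraries below. The same held around the saline mean of 2.06 CPM for Bmp4. In the edgeR fit of PPE week 2 against PPE week 1, Gdf10 passed the threshold and Bmp4 did not, which is a description because the members were chosen on these comparisons.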

How the results depend on the processing

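The count of members past the threshold was 1, 2 and 3 in the comparisons of PPE week 1 with saline, PPE week 2 with saline and PPE week 2 with PPE week 1. It became 2 between PPE week 1 and saline in the fit of the 8 libraries compared, and 0, 0 and 1 with the ribosomal RNA precursor share as a covariate. Leaving out each library in turn gave 1 to 2, 2 to 2 and 2 to 3. The count of other pathway genes was 7, 1 and 6. Library size scaling gave 2 between PPE week 1 and saline, where 1034 of all features passed as higher and 195 as lower. That scaling gave 8 between PPE week 2 and saline, where 1611 of all features passed as higher and 27 as lower. With saline as the base for PPE week 2, the count of other pathway genes was 2 without a low-count filter and 3 in DESeq2. It was 0 in the fit of 8 libraries and 2 with halved counts. The covariate gave 1, 0 and 1, where 23, 0 and 54 of all features passed as higher and 59, 0 and 15 as lower. Leaving out each library gave 3 to 8, 0 to 4 and 3 to 9. The cause was not tested. In the fits of the 8 libraries compared, Fst fell under the filter and has no value where PPE week 1 was 1 of the 2 groups.

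Same-numbered libraries of different groups had correlations between -0.088 and 0.035, and 0 of 12 libraries matched best with their own number, so the numbers do not pair them. The replicate block gave 1, 2 and 3 members and 6, 1 and 5 other pathway genes.

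For Bmp4, Fst, Grem1 and Bmp2 the depth, 193 to 750 counts over all libraries, limits what can be seen. Over the 23 alternatives Gdf10 kept its sign in each comparison. Bmp2, Bmp4, Bmp6 and Grem1 changed sign in at least 1 setting. Bmp2, Bmp4 and Grem1 did so with the covariate and in other settings, and Bmp6 only when libraries were scaled by size alone.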
